A study of Mus musculus with 18 samples.

Results

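Translation efficiency after 24 h of inflammatory cytokines was examined in primary mouse astrocytes across every gene of the authors' deposited table, 12205 of 12205 genes. The astrocytes came from newborn wild-type C57BL mice of pooled sexes and were thawed before culture. Treated cells were cultured for 96 h and then exposed for 24 h to TNFα at 20 ng/ml and IL-1β at 0.25 ng/ml, whereas untreated cells were cultured for 120 h with no cytokine. Each lysate supplied an RNA-seq library and a ribosome profiling (Ribo-seq) library, in which RNase I leaves only the stretches of mRNA covered by ribosomes, here selected at 26 to 34 nt. The 24 h comparison drew on 12 of the 18 libraries of the series, in 4 groups of 3 batches named A, B and C. The cultures are a model of glia outside the brain, and the sources used here do not say whether a batch was a separate animal, litter or vial.

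Ribosomes read mRNA into protein, and the number of footprints per mRNA, the translation efficiency, tells how heavily an mRNA is loaded. A cell can change the output of a gene by changing its mRNA, its ribosome loading, or both. The mRNAs of ribosomal proteins and several translation factors begin with a run of pyrimidines, the 5′ terminal oligopyrimidine (TOP) tract, through which the growth kinase mTOR and the repressor LARP1 control their loading. Astrocytes answer TNFα and IL-1β through NF-κB, with strong induction of chemokines, complement and interferon-stimulated genes.

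The authors' deposited table holds, for each gene, 1 value of RNA, 1 of footprints and 1 of translation efficiency, each at 24 h over untreated. The RNA and footprint columns are log2 fold changes. The translation efficiency column names no scale and was read as log2, because 79.5% of its values differed by at most 0.1 from footprint minus RNA. Values per library are not in the files used here, so no value below could be set against the spread between batches, no test was made, and depth is unknown. In these bulk cultures, fewer cells of a type and less RNA per cell cannot be told apart.

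The identity of the cultures could be read only from which genes were listed. All 10 astrocyte markers checked were listed. Of the microglia markers 4 of 18 were listed, Adgre1 among them. Aif1, Itgam, Cx3cr1, Csf1r, Ptprc, Trem2 and P2ry12 were not listed. Of the markers of other cells, 7 of 14 were listed for the oligodendrocyte lineage, 6 of 14 for neurons, 7 of 13 for endothelial and mural cells and 11 of 11 for fibroblasts and meninges. The table gives no levels, and the part of other cells in the values below was not tested.

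Ribosome loading varied less than RNA, mainly in the tails. Across the 12205 genes the SD over genes was 0.47 for translation efficiency, 1.17 for RNA and 1.10 for footprints, all on the log2 scale. The median translation efficiency value was -0.03, with an interquartile range of -0.29 to 0.26, beside -0.41 to 0.29 for RNA, and 47.2% of genes lay above 0. A value of at least 1, a doubling of footprints per mRNA, was reached by 219 genes (1.79%) and a value of -1 or below by 161 genes (1.32%). The left tail was the longer one, ending at -4.86, against 2.76 on the right.

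**Figure D1:**
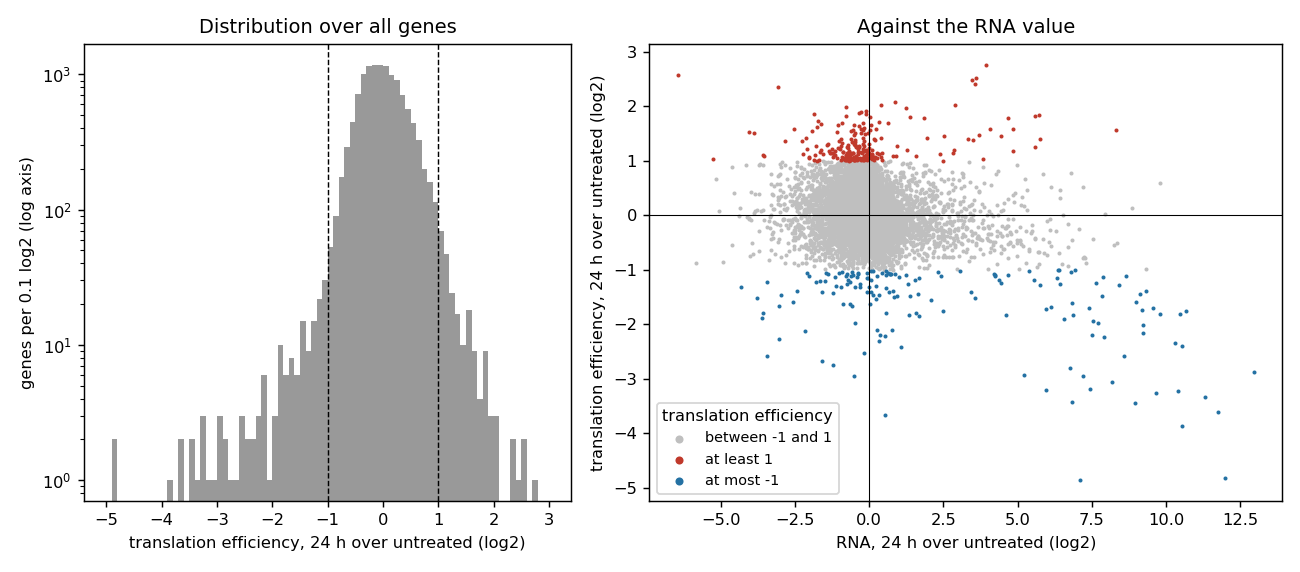
Left, number of genes per 0.1 log2 of the translation efficiency value at 24 h over untreated (log axis), with dashed lines at -1 and 1. Right, the same value on the y axis against the RNA value on the x axis, 1 point per gene. Low values gather at the far right, where RNA was most strongly raised.

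Where the mRNA itself was most strongly induced, ribosome loading per mRNA tended to be lower. Of the 187 genes with an RNA value of 4 or more, 60 had a translation efficiency value of -1 or below (32.1%) and 10 had one of at least 1 (5.35%). The median of these 187 genes was -0.54. Among the 7827 genes with RNA between -0.5 and 0.5, the median was -0.04 and 1.47% lay past 1 in either direction. The RNA libraries enter both the RNA and the translation efficiency value, so these values are not independent. Of the 279 genes with RNA at -2 or below, 15 were higher and 14 lower in translation efficiency.

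Sorting the genes past 1 by their RNA value separated values past 1 in translation efficiency alone from those that opposed or added to the RNA value. Translation efficiency alone was higher in 88 of the 7827 genes with RNA within 0.5 of 0 (1.12%) and lower in 27 of them (0.345%). It opposed a raised RNA (at least 1) in 78 of 920 genes (8.48%) and a lowered RNA in 44 of 1166 genes (3.77%). It added to a raised RNA in 30 genes (3.26% of 920) and to a lowered RNA in 26 genes (2.23% of 1166). The remaining 57 higher and 30 lower genes had an RNA value between 0.5 and 1 in size. Of the 78 genes with raised RNA and lower loading, 53 had an RNA or footprint value beyond 5, and the untreated levels behind such values are not in the files used here.

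Ribosomal proteins, the structural parts of the ribosome, made up the list with the highest medians. The 33 measured proteins of the small subunit had a median translation efficiency value of 0.52, with 27 above 0, and the 48 of the large subunit one of 0.50, with 42 above 0. The median of all genes was -0.03, with 47.2% above 0. In RNA the medians were only 0.22 and 0.21, while in footprints they were 0.74 and 0.65. Few single genes crossed the limit of 1: 2 of the small subunit and 7 of the large subunit were at least 1 (against 1.79% of all genes). At -1 or below were 0 (against 1.32% of all genes). Many ribosomal protein genes have processed pseudogenes of near-identical sequence that can share reads, which makes their values uncertain. The list was known beforehand to stand high in these data.

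To show what the mRNAs at both ends of this family look like, the DNA around the annotated transcription start is printed for the 4 highest and the 4 lowest ribosomal proteins with an entry among the promoters of RefSeq (build GRCm38.p6). Each window has 20 bases before the start and 20 from the start on, written 5′ to 3′ on the strand of the gene. Capitals mark the longest TOP-like run, defined here as a C within 5 bases of the annotated start followed by at least 4 further C or T. For a gene with several annotated starts, such as Rpl19 with 2, a window with a run was preferred for printing. In the counts below, a gene had a run if any of its starts had one. The first 4 sequences belong to the highest values (Rplp2 at 1.42, Rps26 at 1.36, Rpl19 at 1.14 and Rpl37a at 1.07 in the authors' deposited table).
Rplp2 (chr7:141447631-141447670, plus strand): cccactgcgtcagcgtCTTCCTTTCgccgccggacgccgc
Rps26 (chr10:128626487-128626526, minus strand): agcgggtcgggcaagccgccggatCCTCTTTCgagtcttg
Rpl19 (chr11:98026690-98026729, plus strand): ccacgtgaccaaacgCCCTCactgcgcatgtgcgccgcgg
Rpl37a (chr1:72711240-72711279, plus strand): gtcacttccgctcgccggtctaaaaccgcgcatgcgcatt
The other 4 belong to the lowest values (Rpl13a at -0.90, Fau at -0.24, Rpl36a at -0.20 and Rpl27 at -0.20 in the authors' deposited table).
Rpl13a (chr7:45128726-45128765, minus strand): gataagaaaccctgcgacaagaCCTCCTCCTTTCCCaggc
Fau (chr19:6057927-6057966, plus strand): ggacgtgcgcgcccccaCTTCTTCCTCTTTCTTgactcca
Rpl36a (chrX:134585634-134585673, plus strand): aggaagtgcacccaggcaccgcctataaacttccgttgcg
Rpl27 (chr11:101442225-101442264, plus strand): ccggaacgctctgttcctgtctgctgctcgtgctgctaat

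The longest runs among these 8 windows stood in genes with low values, 16 bases in Fau and 14 in Rpl13a, against 9 in Rplp2, 8 in Rps26 and 5 in Rpl19. No run by this definition was found in Rpl37a, Rpl36a or Rpl27. Of the 61 ribosomal protein genes with a promoter entry, 49.2% had a TOP-like run, against 23.8% of all 9613 genes with an entry and 18.3% of all 32851 windows in the RefSeq table. Within the family, the median translation efficiency value was 0.43 for the 30 genes with a run and 0.51 for the 31 without. Over all genes the medians were -0.01 with a run and -0.03 without. A stricter definition (within 2 bases, at least 6 pyrimidines after the C), chosen after seeing the data, gave 0.41 for 18 ribosomal protein genes with a run and 0.52 for 43 without. Annotated starts can miss the start used in these cells, and a missing match says only that these letters were not in the window.

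Within the large subunit, Rplp1 and Rplp2 encode the acidic stalk proteins that recruit elongation factors. In the authors' deposited table Rplp2 stood at -0.21 in RNA, 1.20 in ribosome footprints and 1.42 in translation efficiency. Rplp1 stood at -0.46 in RNA, 0.82 in ribosome footprints and 1.24 in translation efficiency in the same authors' deposited table. Both stalk mRNAs thus had more footprints at an RNA value below 0. Rpl36 (1.27), Rpl19 (1.14), Rpl23a (1.11) and Rpl37a (1.07) were also past 1 in the authors' deposited table. Rpl36 was 0.93 as footprint minus RNA. Rpl37a, at -0.11 in RNA and 0.87 in footprints, was also below 1 on that measure.

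Within the small subunit, Rps26, which sits near the mRNA exit, had the highest value. The authors' deposited table lists Rps26 at -0.17 in RNA, 1.30 in ribosome footprints and 1.36 in translation efficiency. Rps28 (0.90), Rps10 (0.87) and Rpsa (0.84) were also high in the authors' deposited table. At the low end stood Rps27a, which encodes ubiquitin fused to a ribosomal protein, and Fau, which encodes a ubiquitin-like protein fused to one. Rps27a had 0.59 in RNA, 0.11 in ribosome footprints and -0.58 in translation efficiency per the authors' deposited table. The lowest value of either subunit was that of Rpl13a, which in other studies has been tied to translational silencing of inflammatory mRNAs by the GAIT complex. Rpl13a had 0.74 in RNA, -0.05 in ribosome footprints and -0.90 in translation efficiency, per the authors' deposited table.

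The ribosomal protein values at 48 h, which rest on the same untreated libraries, were below those at 24 h in 74 of the 81 genes. The median at 48 h was -0.04 for the small subunit, with 16 of 33 above 0, and 0.12 for the large subunit, with 29 of 48 above 0, beside 0.57 in the study's own set of small subunit assembly genes. Rpl23a stood at 1.11 at 24 h and 0.11 at 48 h in the authors' deposited table. Rplp2 (1.42 and 1.15) and Rpl37a (1.07 and 1.16) had similar values at both times in the authors' deposited table.

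**Figure D2:**
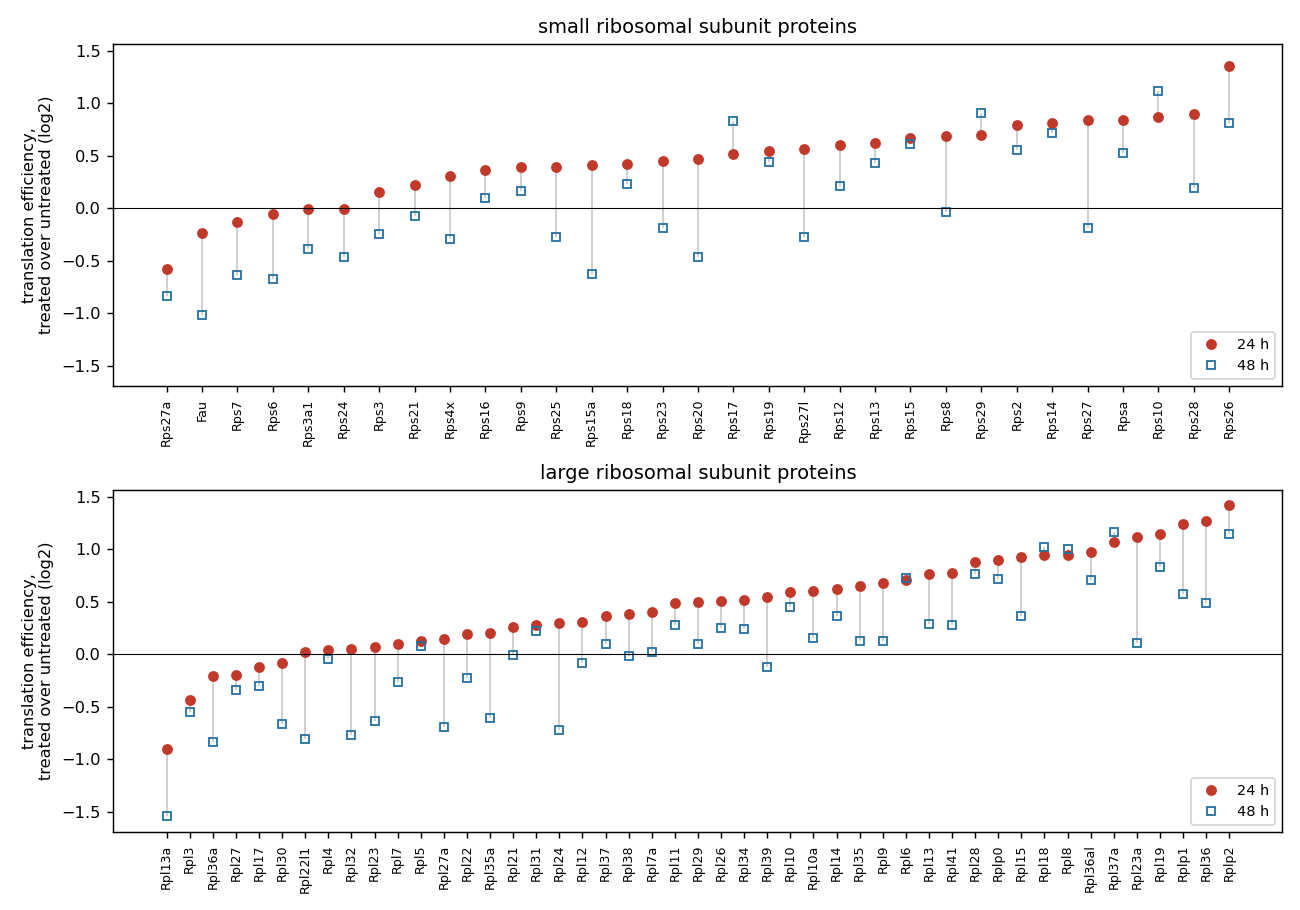
Translation efficiency value (log2, treated over untreated) on the y axis for 78 ribosomal protein genes of the small (top) and large (bottom) subunit, ordered by the 24 h value, with filled circles for 24 h and open squares for 48 h. At 24 h 66 of the 78 genes shown lie above 0, and the 48 h square is below the circle in 71 of them.

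Other mRNAs known to carry a TOP tract had smaller values. The 16 measured members had a median of 0.20, with 11 above 0 and 0 past 1 in either direction. Over all genes 47.2% were above 0, 1.79% at least 1 and 1.32% at -1 or below. The list median was 0.08 with the median of genes of like span subtracted. Rack1, a scaffold on the small subunit (0.76), and Eef1b2, an exchange factor of elongation (0.73), were highest in the authors' deposited table. Tpt1, the translationally controlled tumor protein, had 0.42 in RNA, -0.13 in ribosome footprints and -0.61 in translation efficiency per the authors' deposited table, and Pabpc1, the poly(A)-binding protein, had -0.33 in translation efficiency. The 37 initiation factors (median -0.06, 15 above 0), the 40 ribosome biogenesis genes (-0.08, 16 above 0) and the 24 aminoacyl-tRNA synthetase genes (-0.15, 4 above 0), the machinery that starts translation, builds ribosomes and charges tRNA, did not share the median of the ribosomal proteins. For the synthetases the RNA median was 0.33 and the footprint median 0.21.

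The mTOR pathway genes, counted with translation repressors, had a median of 0.04 (13 of 22 above 0). Eif4ebp2 and Eif4ebp1, which hold back cap-dependent initiation, had 0.80 and 0.46 in the authors' deposited table, and Larp1 had -0.09. These are values for the mRNAs of the regulators and do not measure mTOR activity.

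Respiratory chain subunits encoded in the nucleus formed a further group with values above the background. The 45 genes of complex I, the NADH dehydrogenase, had a median of 0.28 with 31 above 0, and the 44 genes of complexes II to V one of 0.29 with 33 above 0. In RNA their medians were -0.15 and -0.21, and in footprints 0.13 and 0.13, so that lower RNA stood beside slightly higher footprints. At least 1 was reached by 3 and 6 genes (against 1.79% of all genes), and -1 or below by 0 in both lists (against 1.32%).

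By complex, the median was 0.35 for the 37 structural subunits of complex I and -0.09 for its 8 assembly factors, which build the complex but are not part of it. It was 0.17 for the 4 genes of complex II, 0.52 for the 10 of complex III and cytochrome c, 0.44 for the 13 of complex IV, and 0.16 for the 17 of complex V, the ATP synthase. Atp5g2, a subunit of the membrane ring of ATP synthase, had -0.52 in RNA, 0.87 in ribosome footprints and 1.66 in translation efficiency per the authors' deposited table. Uqcr11, a small subunit of complex III, had -0.60, 0.38 and 1.40 for the same quantities in the authors' deposited table. Its footprint minus RNA value was 0.98. Ndufa11, a membrane subunit of complex I, had -0.73, 0.55 and 1.29 in the authors' deposited table. Low values were found as well: Atp5b, the beta subunit of ATP synthase, had -0.47, Sdha, the flavoprotein of complex II, had -0.45, and Ndufs1, an iron-sulfur subunit of complex I, had -0.59 in translation efficiency per the authors' deposited table. Ndufs7, another iron-sulfur subunit of complex I, stood at 1.02 in the authors' deposited table.

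The 9 listed proteins encoded in mitochondrial DNA, which are made on mitochondrial ribosomes, had a median of -0.09, with 2 above 0. Their RNA median was 0.31 and their footprint median 0.19. The authors' deposited table gives mt-Nd6 as -0.56 at 24 h and -1.03 at 48 h, and mt-Co1 as -0.37 and -0.84. At 48 h, 0 of the 9 lay above 0. Mitochondrial ribosomal proteins, encoded in the nucleus, had a median of 0.17 with 52 of 77 above 0. The highest of them, Mrps34, had 1.81 in the authors' deposited table but 0.93 as footprint minus RNA.

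The study had itself singled out related gene sets, and for these the authors' deposited table gives p-values with a sign. The test behind them is not stated there. In translation efficiency at 24 h, the authors' deposited table gives 1e-06 (higher) for ribosomal small subunit assembly and 1e-09 (higher) for oxidative phosphorylation. It gives 0.23 (lower) for cytokine activity, 0.29 (lower) for DNA replication and 0.64 (higher) for apoptosis in that authors' deposited table. The median over the deposited members was 0.57 for the 16 genes of small subunit assembly (14 above 0), 0.30 for the 75 of oxidative phosphorylation (57 above 0), -0.09 for the 74 of cytokine activity, -0.08 for the 34 of DNA replication and -0.01 for the 67 of apoptosis. The sets were chosen by the study on these same libraries, so they are no independent evidence of a direction. At 48 h the median of small subunit assembly was 0.57, with 13 of 16 above 0, and its deposited p was 0.0001 (higher) per the authors' table, while the full list of small subunit proteins had the median of -0.04 given above.

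**Figure D3:**
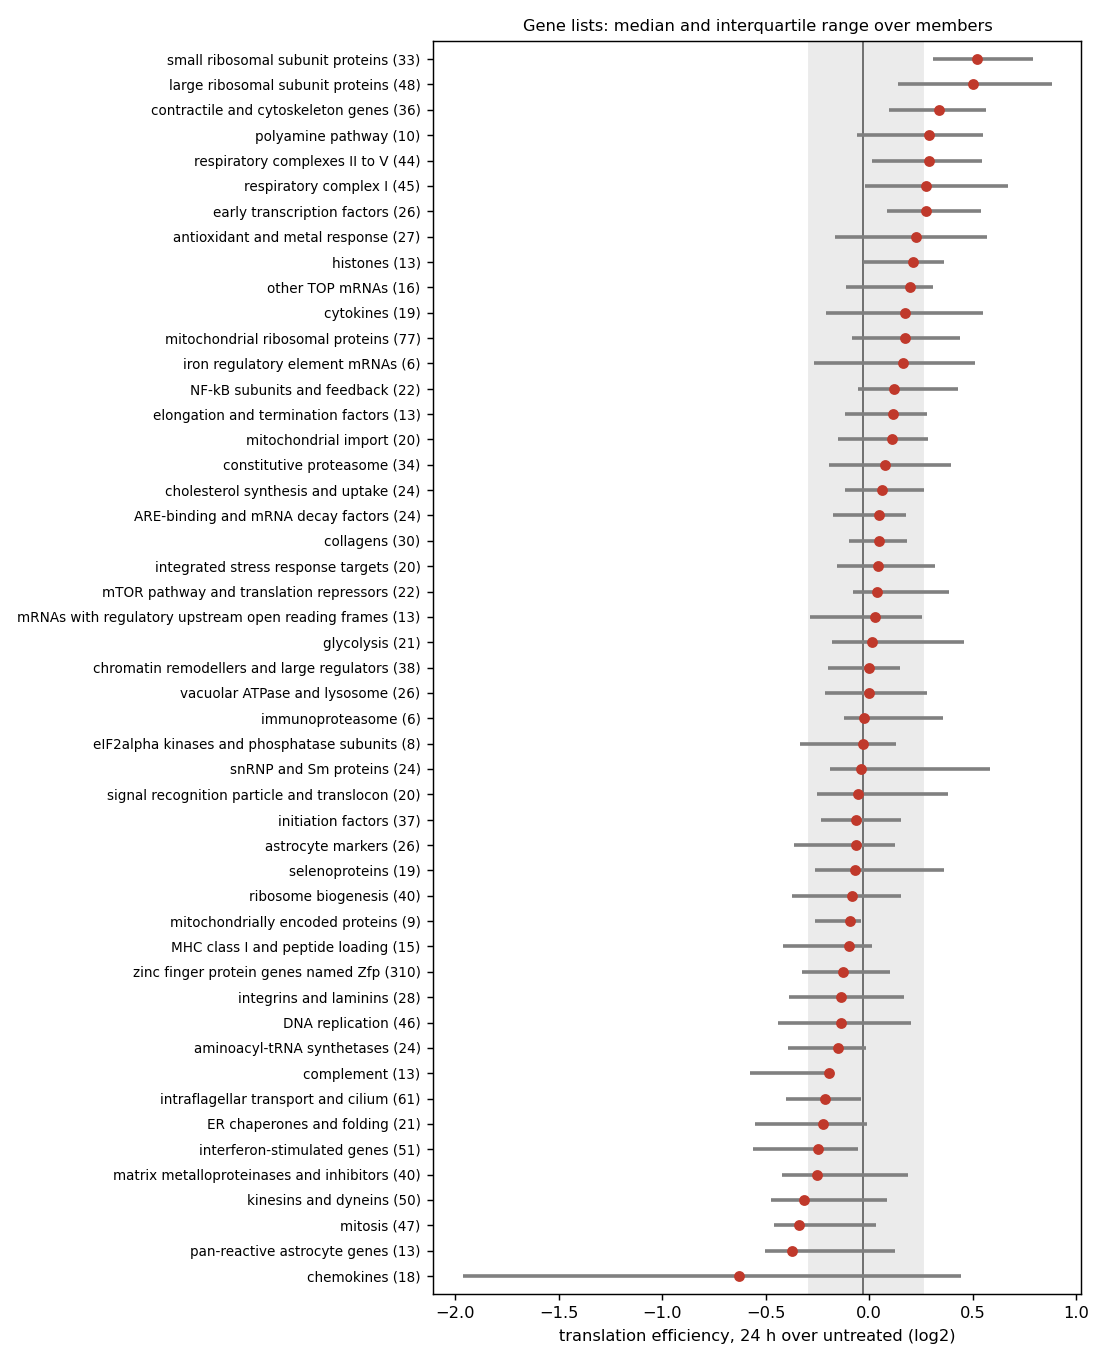
Median (points) and interquartile range over members (bars) of the translation efficiency value (log2, 24 h over untreated) for 49 gene lists, with the number of measured members in brackets. The grey line and band are the median and interquartile range of all 12205 genes, and ribosomal proteins stand at the top and chemokines at the bottom.

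Translation efficiency also varied with the size of the gene. Genes were divided into quintiles by gene span, the distance from start to end in RefSeq, introns included, available for 12007 genes. The median translation efficiency value was 0.20 in the shortest quintile, then 0.08, -0.04 and -0.14, and -0.17 in the longest quintile. The share of genes above 0 was 66.8% in the shortest and 30.5% in the longest quintile. At 48 h the medians were 0.16 in the shortest and -0.20 in the longest quintile. Of the 219 genes at or above 1, 118 were in the shortest quintile (4.91% of that quintile). The grouping by span was chosen after seeing the data, and what lies behind the trend was not tested.

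Gene span bears on the groups above, because 79 of the 81 ribosomal protein genes lay in the shortest quintile. Their median there was 0.52, against 0.19 for the other 2323 genes of that quintile, and 59 of the 79 lay above the median of the quintile. For complex I, 26 genes lay in the shortest quintile with a median of 0.50, 19 of them above the median of the quintile, while the 10 genes in the next quintile had a median of -0.04. Of the 30 genes of complexes II to V in the shortest quintile, 18 were above its median, and of the 49 mitochondrial ribosomal proteins there, 27 were. With the median of the own quintile subtracted, the list medians were 0.33 for the small and 0.30 for the large ribosomal subunit, 0.08 for complex I, 0.13 for complexes II to V and 0.05 for mitochondrial ribosomal proteins. Subtracted in the same way, the medians of lists with smaller values were 0.18 for the mTOR pathway genes, 0.06 for stress response targets, 0.11 for the polyamine pathway, 0.30 for mRNAs with an iron-responsive element, -0.29 for complement and -0.12 for astrocyte markers.

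**Figure D4:**
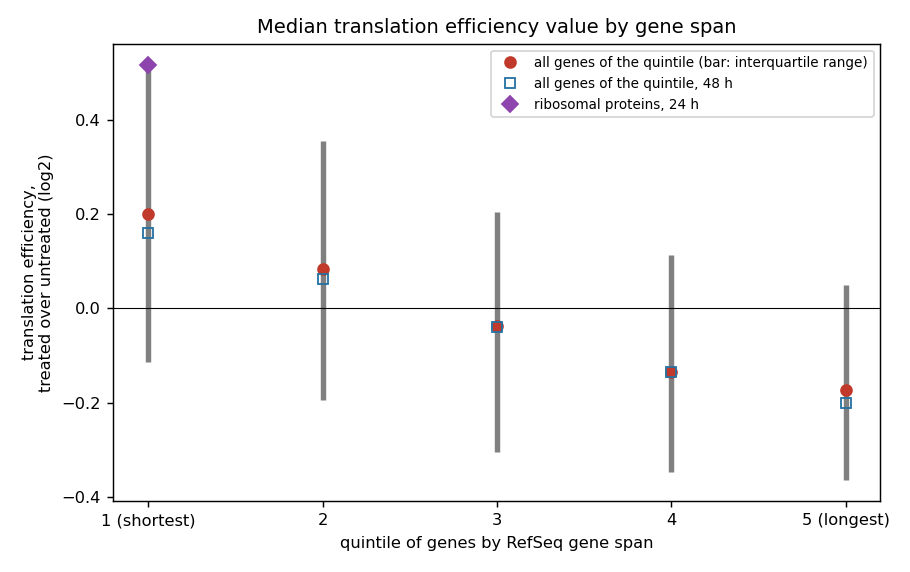
Median translation efficiency value (log2, treated over untreated) on the y axis for each quintile of genes by RefSeq gene span on the x axis, at 24 h (filled circles, with the interquartile range over genes as a bar) and 48 h (open squares). The diamond is the median of the 79 ribosomal protein genes in the shortest quintile at 24 h, 0.52, where all genes of that quintile had 0.20.

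Chemokines, the secreted attractants of leukocytes, had the lowest median of the 49 lists plotted and the widest spread. The 18 measured genes had medians of 8.31 in RNA, 6.63 in ribosome footprints and -0.63 in translation efficiency. All 18 had a footprint value above 0, so the low translation efficiency values describe an induction that was smaller in footprints than in RNA. At -1 or below stood 7 of the 18 genes (against 1.32% of all genes), and 2 were at least 1. Among the 187 genes with RNA of 4 or more, chemokines included, 32.1% were at -1 or below, with a median of -0.54. Whether chemokines differ from other strongly induced genes was not tested. The low chemokine median rests on the strongly induced members. Without the genes beyond 5 in RNA or footprints, the remaining 5 chemokines had a median of 0.50.

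Cxcl9, a ligand of the receptor CXCR3 (ENSMUSG00000029417, GRCm38.p6 chr5:92321331-92328079), was the chemokine with the lowest value. Its authors' deposited table values were 11.99 in RNA, 6.77 in ribosome footprints and -4.82 in translation efficiency. The neighbouring Cxcl11, another ligand of CXCR3 annotated in RefSeq as a transcribed pseudogene, had 11.29, 8.33 and -3.33 in the authors' deposited table. Cxcl10, the third ligand of this receptor, differed from both: it had 8.36 in RNA, 7.94 in ribosome footprints and -0.51 in translation efficiency per the authors' deposited table. Ccl20, the ligand of CCR6, had 10.39, 6.50 and -3.22 in the authors' deposited table. Cxcl5, a neutrophil attractant, had 10.54, 8.07 and -2.40 in the authors' deposited table. Ccl7 (-2.01), Ccl5 (-1.82) and Cxcl1 (-1.70) followed in translation efficiency per the authors' deposited table.

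At the other end of the family, Cxcl2, a neutrophil attractant closely related to Cxcl1, had 9.79 in RNA, 11.21 in ribosome footprints and 0.59 in translation efficiency per the authors' deposited table. Its footprint minus RNA value was 1.42, so the deposited translation efficiency value understates that difference. Ccl17, a ligand of CCR4, had 4.08, 5.75 and 1.58 in the authors' deposited table, adding to a raised RNA. Ccl6 had 1.02 in the authors' deposited table but 0.40 as footprint minus RNA. Chemokines with little or moderate change in RNA lay above 0: Cxcl12, Cxcl14, Cx3cl1 and Ccl27a had values of 0.27, 0.50, 0.54 and 0.25 in translation efficiency per the authors' deposited table.

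**Figure D5:**
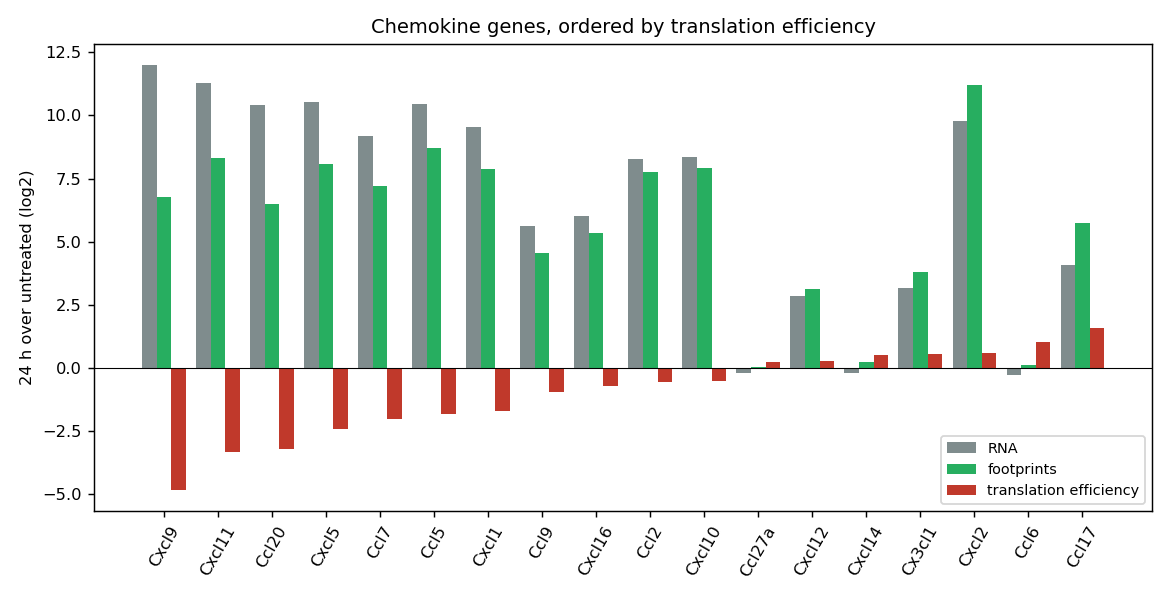
Log2 values at 24 h over untreated (y axis) for 18 chemokine genes ordered by translation efficiency (x axis), with grey bars for RNA, green for footprints and red for translation efficiency. The 11 genes with red bars below 0 all have grey bars above 5, and Cxcl2 is as strongly induced with a red bar above 0.

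Cytokines outside the chemokine family were mixed, with a median of 0.17, a mean of -0.05 and 12 of 19 above 0. The 3 that stood at -1 or below, against 1.32% of all genes, were Csf3, the granulocyte growth factor, Il6, and Lif, a ligand related to Il6. Csf3 had 10.29 in RNA, 7.65 in ribosome footprints and -2.35 in translation efficiency per the authors' deposited table. Il6 had 6.84, 5.20 and -1.61, and Lif had 3.07, 1.78 and -1.02, for the same quantities in the authors' deposited table. Il19, a member of the IL-10 family, had 6.78 in RNA, 8.59 in ribosome footprints and 0.77 in translation efficiency per the authors' deposited table, with footprint minus RNA at 1.81.

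Interferon-stimulated genes, whose products restrict viruses, leaned to lower loading. The 51 measured genes had a median translation efficiency value of -0.25, with 10 above 0, 7 at -1 or below and 3 at least 1, against 47.2%, 1.32% and 1.79% of all genes. Members were chosen with earlier results known, and all 51 had RNA of at least 1. Their RNA median was 3.67. All genes with RNA of 2 to 4 had a median of -0.12, with 2.55% at -1 or below. Those with RNA of 4 or more had -0.54 and 32.1%. The low values in the list were mostly of guanylate-binding proteins, GTPases that attack pathogen vacuoles. The authors' deposited table gives Gbp6 as -1.98, Gbp4 as -1.74, Gbp5 as -1.59 and Gbp10 as -1.44 in translation efficiency. These genes are close copies of each other and may share reads. Gbp8, of the same family, had 4.84 in RNA, 6.04 in ribosome footprints and 1.58 in translation efficiency per the authors' deposited table. Irf7, the transcription factor that amplifies interferon production, had 4.38, 3.26 and -1.19 in the authors' deposited table. Isg20, an exonuclease, had 2.53, 3.89 and 1.46, and Oas3, a sensor of double-stranded RNA, had 3.50, 4.86 and 1.38 in the authors' deposited table.

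The complement genes listed had a median of -0.19, and 1 of 13 lay above 0. That gene was Cfb, complement factor B of the alternative pathway (ENSMUSG00000090231, GRCm38.p6 chr17:34856374-34862514). Cfb had 5.58 in RNA, 7.66 in ribosome footprints and 1.82 in translation efficiency per the authors' deposited table. C3, the central component, had 5.50, 5.30 and -0.19 in the authors' deposited table. C1s1, a protease of the classical pathway, had 4.22, 3.16 and -1.13 in the authors' deposited table. Factor B and C1s1 therefore stood on opposite sides of C3 with RNA values above 4 in all of them.

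Antigen presentation genes had high RNA values beside translation efficiency medians near or slightly below 0. The 15 genes of MHC class I and peptide loading had a median of -0.10 with 4 above 0, beside 2.42 in RNA and 2.66 in footprints. The 6 immunoproteasome genes had a median of -0.02, with 3 above 0 and a mean of 0.14, where all genes had a median of -0.03. With the median of the own span quintile subtracted, the MHC class I and immunoproteasome medians were -0.30 and -0.22. Among reactive astrocyte genes, Lcn2, a secreted iron-siderophore carrier, had 7.53 in RNA, 7.17 in ribosome footprints and -0.44 in translation efficiency per the authors' deposited table. Steap4, a metalloreductase, had 6.50, 5.71 and -0.89 in the authors' deposited table. The median of the 13 pan-reactive genes was -0.37, and -0.04 without the genes beyond 5 in RNA or footprints. Of the 13, 5 lay above 0 and 0 past 1 in either direction. Over all genes 47.2% were above 0, 1.79% at least 1 and 1.32% at -1 or below.

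The 22 NF-κB subunits and feedback genes, the regulators of the response, had a median translation efficiency value of 0.12. Above 0 lay 15, at least 1 lay 1 and at -1 or below 0, against 47.2%, 1.79% and 1.32% of all genes. The median lay between 0.07 and 0.19 under the alternatives run. Relb, a subunit of the non-canonical pathway, had 2.49 in RNA, 3.56 in ribosome footprints and 1.00 in translation efficiency per the authors' deposited table. Nfkbia, which encodes the inhibitor IκBα, had 3.14, 2.99 and -0.22 in the authors' deposited table. Map3k14, which encodes the kinase NIK that starts the non-canonical pathway (ENSMUSG00000020941, GRCm38.p6 chr11:103219764-103267401), had an RNA value near 0: its authors' deposited table values were -0.15 in RNA, 1.33 in ribosome footprints and 1.49 in translation efficiency.

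Early transcription factors, the short-lived products of immediate early genes, had a median of 0.27, with 22 of 26 above 0, 1 at least 1 and 1 at -1 or below, against 47.2%, 1.79% and 1.32% of all genes. Ier2, a nuclear regulator (ENSMUSG00000053560, GRCm38.p6 chr8:84661331-84662852), was the member of at least 1. In the authors' deposited table Ier2 had 0.07 in RNA, 1.79 in ribosome footprints and 1.66 in translation efficiency at 24 h, and 1.49 in translation efficiency at 48 h. Nr4a2, an orphan nuclear receptor, had -1.12, -2.10 and -1.29 in the authors' deposited table, and -0.98 as footprint minus RNA. With the median of the own span quintile subtracted, the list median was 0.20. In the shortest quintile 9 of 17 members lay above its median, in the next 3 of 6, and in the third 3 of 3.

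The 88 genes with higher loading and RNA within 0.5 of 0 included 32 whose 3 deposited values agreed within 0.1. Ftl1, the ferritin light chain that stores iron, had -0.47 in RNA, 0.80 in ribosome footprints and 1.28 in translation efficiency per the authors' deposited table. Ferritin mRNAs carry an iron-responsive element, a hairpin that blocks initiation when iron is low, and the heavy chain Fth1 had 1.59, 2.24 and 0.60 in the authors' deposited table. Tfrc, the transferrin receptor, whose mRNA carries such elements at its 3′ end, had -0.03, -0.42 and -0.43 in the authors' deposited table. Over the 6 mRNAs of this kind the median was 0.16, with 4 above 0.

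Metallothioneins, small metal-binding proteins, also stood high. Mt1 had -0.93 in RNA, 0.53 in ribosome footprints and 1.69 in translation efficiency per the authors' deposited table. Mt2 had -0.33, 0.95 and 1.25 in the authors' deposited table. The 27 antioxidant and metal response genes had a median of 0.23, with 19 above 0 and 3 at least 1, against 1.79% of all genes. Slc7a11, the cystine transporter, was the most strongly induced of them and had 4.96 in RNA, 4.52 in ribosome footprints and -0.46 in translation efficiency per the authors' deposited table.

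Bax, Bbc3, Mif and Srm were among the same 32 genes. Bax and Bbc3, which promote apoptosis at the mitochondrion, had 1.04 and 1.16 in translation efficiency per the authors' deposited table, beside RNA values of 0.06 and -0.37. Mif, a cytokine, had 0.17 in RNA, 1.09 in ribosome footprints and 1.01 in translation efficiency per the authors' deposited table. Srm, the spermidine synthase, had 0.09, 1.21 and 1.08 in the authors' deposited table. The median of the 10 polyamine pathway genes was 0.29, with 6 above 0 and Sms, the spermine synthase, at -0.78 in the authors' deposited table. Bax, Bbc3 and Mif were picked with their values already seen, and the study's apoptosis set had a median of -0.01.

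The 27 genes with lower loading and RNA within 0.5 of 0 included 5 whose 3 values agreed within 0.1. Hps3, a subunit of a complex for lysosome-related organelles, had 0.02 in RNA, -1.52 in ribosome footprints and -1.64 in translation efficiency per the authors' deposited table. Zeb1, a transcription factor of epithelial to mesenchymal transition, had -0.08, -1.06 and -1.06 in the authors' deposited table. Ptprq (-1.26), Catip (-1.14) and Sema3d (-1.07) were the other members in the authors' deposited table. In all 88 and all 27 genes of both kinds the 48 h value had the same sign, which rests in part on the shared untreated libraries.

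Genes with several upstream reading frames, and the targets of the integrated stress response, were near the background. The 13 mRNAs known for regulatory upstream open reading frames had a median of 0.03 (-0.12 with the median of the own span quintile subtracted). The 20 stress response targets had one of 0.04. Each list had 0 genes past 1 in either direction, where 1.79% of all genes were at least 1 and 1.32% at -1 or below. Atf4, the transcription factor at the head of that response, had 1.05 in RNA, 1.77 in ribosome footprints and 0.70 in translation efficiency per the authors' deposited table at 24 h, and 0.16 in translation efficiency at 48 h. Ddit3 had 1.05, 0.98 and 0.03 for RNA, footprints and translation efficiency in the authors' deposited table. Footprints on upstream frames and on the main frame cannot be told apart in values per gene.

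Chaperones of the endoplasmic reticulum, where secreted proteins fold, lay below the background. The 21 measured genes had medians of 0.38 in RNA, 0.08 in ribosome footprints and -0.22 in translation efficiency. Above 0 lay 4, against 47.2% of all genes. Past 1 in either direction lay 0, where 1.79% of all genes were at least 1 and 1.32% at -1 or below. Hspa5, the chaperone BiP, had 0.71 in RNA, 0.15 in ribosome footprints and -0.65 in translation efficiency per the authors' deposited table. Hsp90b1, the chaperone GRP94, had 0.44, -0.11 and -0.66 in the authors' deposited table. Pdia3 (-0.64) and Calr (-0.64) had like values in the authors' deposited table.

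Genes of the cell cycle had lower RNA values, and those of mitosis had mostly translation efficiency values below 0. The 47 mitosis genes had medians of -1.52 in RNA, -1.80 in ribosome footprints and -0.34 in translation efficiency, with 13 above 0. Kif20a, a kinesin of cytokinesis, had -1.44, -2.48 and -1.06 in the authors' deposited table. It was the member past 1, where 1.32% of all genes were at -1 or below. Cdc20, an activator of the anaphase-promoting complex, had -1.85, -1.39 and 0.42 in the authors' deposited table. The 46 DNA replication genes had a translation efficiency median of -0.13, with 19 above 0 (41.3%, against 47.2% of all genes). The mean of the mitosis genes was -0.23, and fewer dividing cells were not told apart from less RNA per cell.

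Contractile and cytoskeletal genes had lower RNA values beside translation efficiency values mostly above 0. The 36 genes had medians of -0.77 in RNA, -0.46 in ribosome footprints and 0.34 in translation efficiency. Above 0 lay 30 and at least 1 lay 1, against 47.2% and 1.79% of all genes. With the median of the own span quintile subtracted, the list median was 0.33. Tuba1b, an alpha-tubulin whose sequence is nearly that of Tuba1a, had -0.58 in RNA, 0.50 in ribosome footprints and 1.34 in translation efficiency per the authors' deposited table. Acta2, smooth muscle actin, had -3.01, -2.20 and 0.76 in the authors' deposited table.

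The defining genes of astrocytes had lower RNA values on the median and translation efficiency values near the background. The 26 astrocyte markers had a median of -0.81 in RNA and -0.06 in translation efficiency. Above 0 lay 11, against 47.2% of all genes. Past 1 in either direction lay 0, where 1.79% of all genes were at least 1 and 1.32% at -1 or below. Unlike the median marker, the glutamate transporters Slc1a2 and Slc1a3 had raised RNA, at 2.17 and 1.05 per the authors' deposited table. Their translation efficiency values, -0.67 and -0.65 in the authors' deposited table, were near the lowest of the list (-0.70). Apoe, the main lipid carrier of the brain, had -0.77 in RNA, -0.21 in ribosome footprints and 0.51 in translation efficiency per the authors' deposited table. Gfap, the intermediate filament of astrocytes, had -1.79, -2.07 and -0.37 in the authors' deposited table.

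Among all genes whose values agreed within 0.1 and whose RNA and footprint values lay between -5 and 5, Tnn was highest and Myom1 lowest. Tnn, the matrix protein tenascin-N, had 0.88 in RNA, 2.99 in ribosome footprints and 2.08 in translation efficiency per the authors' deposited table. Hecw2, a ubiquitin ligase, had -1.61, 0.05 and 1.67, and Dfna5, the pore-forming gasdermin E, had -1.72, -0.01 and 1.72 in the authors' deposited table. For both of these, footprints stood near 0 while RNA was lower. Myom1, a sarcomere protein, had -1.59, -4.32 and -2.68 in the authors' deposited table. Col9a1, a collagen chain, had -2.57, -4.21 and -1.59, and Ank2, an ankyrin, had 1.66, 0.26 and -1.46 in the authors' deposited table.

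Of all genes, the 2 lowest translation efficiency values were those of Wfdc17 and Cxcl9, and the highest was that of Fam169a. Wfdc17, a small secreted protease inhibitor, had 7.11 in RNA, 0.05 in ribosome footprints and -4.86 in translation efficiency per the authors' deposited table, with footprint minus RNA at -7.06. The acute phase protein Saa3 had 11.74, 8.06 and -3.61 in the authors' deposited table, with values that agreed. Fam169a had 3.93, 6.54 and 2.76 in the authors' deposited table. Mrto4, a ribosome assembly factor, had 0.53 in RNA, -0.35 in ribosome footprints and -3.67 in translation efficiency per the authors' deposited table, but -0.88 as footprint minus RNA, so its values do not add up. Gaps of this kind above 1 were found in 34 genes and above 0.5 in 172.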

How the data were processed

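RNA-seq and Ribo-seq libraries of untreated and treated astrocytes were made by the submitters; the tools TopHat2 and featureCounts and the build mm10 are named in the submitters' processing notes. The sources used here do not give how counts were normalized and batches combined. The sample labels name polyA RNA, whereas the protocol names a stranded total RNA kit, so the RNA selection is not settled. Per the file headers, the authors deposited log2 fold changes over untreated cells. The authors' deposited p-values of gene sets are signed scores, read as p with a direction. The translation efficiency column was compared with footprint minus RNA. Genes at or past 1 or -1 were counted, medians taken over lists, and no filter was applied to 12205 genes; the scripts were checked on simulated data. Names matched for 12201 genes, and 31 symbols were replaced. Gene spans and starts came from RefSeq (GRCm38.p6). The match was by Ensembl identifier, or by symbol where that gave none, and was found for 12010 genes. Pandas 2.3.3 and numpy 2.4.6 under Python 3.11.15 were used.

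The lists and the genes named were chosen with earlier results of these data known. Named were the 12 highest and lowest genes whose values agreed within 0.1 and lay between -5 and 5 in RNA and footprints, the 5 highest and lowest of all, up to 5 per class, up to 3 high and low per list, and 12 genes of the authors' sheet of p-values; genes outside this rule (among them Bax, Bbc3, C3, Ccl5, Cxcl1, Cxcl10, Gfap, Larp1, Lcn2, Mif and Nfkbia) were chosen after their values were seen. No test was possible with 1 value per gene, in place of the planned comparison across libraries. Values of some genes are not reported here.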

Additional observations from a re-analysis of the deposited data

How the results depend on the processing

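No paired analysis was possible because the deposited table holds 1 value per gene and comparison, with no value per batch; leaving out a batch and grouping by protein length were not run for want of values per library and of protein sequences. The counts of genes higher and lower at 24 h were 219 and 161. They became 1080 and 806 at a limit of 1.5-fold, 52 and 70 at 1.5 on the log2 scale, and 100 and 46 without genes whose value differs by over 0.1 from footprint minus RNA. Without genes beyond 5 in RNA or footprints the lower count was 102. Footprint minus RNA (207 and 134), centring on all genes (236 and 155) and centring on the span quintile (176 and 163, chosen after seeing the data) stayed within 1.5 times. The sign of the median stayed under every alternative run for both ribosomal subunits, complex I, complexes II to V, interferon-stimulated, complement, chaperone, mitosis, contractile and early transcription factor genes. That of chemokines turned to 0.50 without genes beyond 5, which leaves 5 members, and kept its sign otherwise. A 95% order-statistic interval of each median was taken over the genes of the list, which are not replicates, and it holds no spread between batches. It serves only as a yardstick for the size of a shift. Outside this interval fell the small ribosomal subunit (0.33) and complexes II to V (0.13) centred on the span quintile, complement centred on all genes (-0.16), and mitosis as a mean (-0.23). So did immunoproteasome (-0.22), collagens (0.17), chromatin regulators (0.13) and cilium (-0.14) centred on the span quintile, Zfp genes as footprint minus RNA (-0.07) and without disagreeing genes (-0.07), and the longest span quintile as footprint minus RNA (-0.11). Adgre1, 1 of the 4 microglia markers listed, was at -1.79 in the authors' deposited table but 0.17 as footprint minus RNA. The cause was not tested. Medians with and without a TOP-like start, -0.01 and -0.03, were 0.038 and 0.019 as footprint minus RNA, so neither sign is fixed. Other medians near 0 changed sign. Centred on the span quintile this held for upstream reading frames (-0.12), mitochondrial import (-0.043), constitutive proteasome (-0.012), chromatin regulators (0.13), integrins and laminins (0.0020), lysosome (0.079) and neuron markers (0.068). As footprint minus RNA it held for signal recognition particle (0.0105), immunoproteasome (0.0115), chromatin regulators (0.044) and lysosome (0.053). Centred on all genes it held for immunoproteasome (0.0050), chromatin regulators (0.0275) and lysosome (0.027). Without disagreeing genes it held for snRNP (0.11) and lysosome (0.025). As a mean it held for signal recognition particle (0.031), selenoproteins (0.018), immunoproteasome (0.14), cytokines (-0.0502), chromatin regulators (0.0042), snRNP (0.18), collagens (-0.0071) and lysosome (0.0084). Depth and batch spread are unknown, so no single gene value here carries an error.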

Other observations

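Some rows of the deposited table are not protein-coding genes in RefSeq, and their footprint values need not stand for translation. Of 138 long non-coding RNAs, 83 lay above 0 in translation efficiency at 24 h, with a median of 0.11, 8 at least 1 and 4 at -1 or below, against 47.2% of all genes above 0, 1.79% at least 1 and 1.32% at -1 or below. Rian, an imprinted non-coding RNA, had -1.84 in RNA, -0.21 in ribosome footprints and 1.86 in translation efficiency per the authors' deposited table. The small nucleolar RNAs Snora68 and Snora31 had 1.89 and 1.80 in translation efficiency per the authors' deposited table, although footprint minus RNA was 0.68 for Snora68. The mitochondrial ribosomal RNA mt-Rnr2 had 0.72, -0.27 and -1.08 in the authors' deposited table. Whether the RNA libraries were of polyA or total RNA is not settled, which limits what the RNA values of such rows mean.

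Of 19 genes that RefSeq annotates as transcribed pseudogenes in the reference strain, the median was -0.07 with 9 above 0, and 5 stood at -1 or below, against 1.32% of all genes: Cxcl11 (-3.33), Serpina3h (-3.21), Gm31520 (-2.12), Gm6548 (-1.85) and Mx1 (-1.72) in the authors' deposited table. Mx1, an antiviral GTPase gene, had 5.96 in RNA and 3.91 in footprints per the authors' deposited table. Cxcl11 and Mx1 were counted above among the chemokines and the interferon-stimulated genes at -1 or below, and their footprint values need not stand for translation either. This grouping was chosen after seeing the data.

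Cilium genes, which astrocytes need for their primary cilium, had a translation efficiency median of -0.21, with 13 of 61 above 0, and kinesins and dyneins, the microtubule motors, one of -0.31, with 17 of 50 above 0. With the median of the own span quintile subtracted, these were -0.14 and -0.14.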
